A study of Mus musculus with 12 samples.

Results

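Spib, Spi1 and Irf8, together with the ETS factors Ets1, Elf1, Fli1 and Gabpa, were followed in mouse B cell acute lymphoblastic leukemia (B-ALL) cells in which β-catenin was stabilized and the Ikaros factors Ikzf1 and Ikzf3 were edited. The 7 genes were chosen by symbol, all 7 were present, and they make up 7 of the 12151 genes of the expression table. The set was selected on measured values of these libraries, because Spib was among the genes with the largest differences between edited and unedited cells, so the differences between KO and WT cells are given for the 7 genes as a description and without a test.

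Polyadenylated RNA was sequenced from 12 libraries in 4 groups of 3. All libraries came from bone marrow pre-B cells of mice aged 6 to 12 weeks that were transformed by BCR-ABL1, the fusion kinase of Philadelphia chromosome-positive leukemia, and all carried 1 Ctnnb1 allele with a floxed exon 3 (Ctnnb1Ex3fl/+). WT cells received nontargeting guides (sgNTC), and KO cells received guides against Ikzf1 and Ikzf3. Either background carried an ERT2 or a Cre-ERT2 vector with GFP, and sorted GFP+ cells were treated with 4-hydroxytamoxifen (4-OHT), which activates Cre-ERT2 and removes exon 3, the part of β-catenin that marks it for degradation. The WT groups are called ERT2 WT and Cre-ERT2 WT below, and the KO groups correspondingly. KO lines grew from single edited cells, so editing and clonal origin cannot be told apart, and Cre activity and loss of exon 3 cannot be told apart either, because the ERT2 vector holds no Cre. Nothing in the labels says whether the 3 libraries of a group were separate lines, cultures or days, so the spread between them may be technical.

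ETS factors share a DNA-binding domain that reads a GGAA core. PU.1, the product of Spi1, and its close relative Spi-B, the product of Spib, bind the same sites in B cells and recruit Irf4 or Irf8, which bind weakly by themselves, to composite ETS-IRF elements in immunoglobulin light chain enhancers and other B cell genes. Loss of both PU.1 and Spi-B from the B lineage leads to pre-B cell leukemia in mice.

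Promoters are shown for the members with the largest differences between KO and WT cells, Spib and Irf8. Of the 7 genes, 4 had a RefSeq promoter (GRCm38.p6), namely Spib, Irf8, Elf1 and Gabpa. Spi1, Ets1 and Fli1 were not matched. The sequences are the 250 bases before the transcription start, in the direction of the gene, and capitals mark the ETS core GGAA or its reverse complement TTCC.
Spib promoter, chr7:44532072-44532321, minus strand: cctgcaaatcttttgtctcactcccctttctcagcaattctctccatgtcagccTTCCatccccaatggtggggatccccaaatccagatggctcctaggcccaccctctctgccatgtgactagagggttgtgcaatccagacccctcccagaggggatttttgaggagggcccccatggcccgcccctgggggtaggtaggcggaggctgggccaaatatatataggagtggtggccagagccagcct
Irf8 promoter, chr8:120736108-120736357, plus strand: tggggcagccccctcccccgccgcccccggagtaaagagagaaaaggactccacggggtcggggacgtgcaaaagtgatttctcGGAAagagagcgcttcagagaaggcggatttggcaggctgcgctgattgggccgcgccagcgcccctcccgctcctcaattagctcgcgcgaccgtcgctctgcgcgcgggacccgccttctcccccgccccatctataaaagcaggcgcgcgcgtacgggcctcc
Each window held 1 ETS core, at 196 to 193 bases before the start of Spib and at 166 to 163 bases before the start of Irf8. The Ikaros core GGGAA, which contains the ETS core, occurred in neither of these windows on either strand. A second Irf8 start held 2 ETS cores, each within an Ikaros core. Elf1 held 2 ETS cores at its first start and 0 at its second, and Gabpa held 5. Over 32851 promoters of the same length, 93.4% held the ETS core and 56.2% the Ikaros core. A composite of GGAA, 2 free bases and GAAA stood in 2.3% of promoters and in 0 of the 6 windows of these genes.

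Of the targeted genes, Ikzf1 transcript averaged 13.74 ± 0.01 (log2, SD, n = 3) in ERT2 WT and 14.75 ± 0.01 in ERT2 KO libraries, and Ikzf3 averaged 11.63 ± 0.05 and 10.98 ± 0.01. Ikzf1 thus stood higher and Ikzf3 lower in the libraries labelled KO, and a transcript level does not measure loss of the protein after editing. The paper reports that it verified deletion of the Ikaros factors by western blot in the clonal lines. Values are log2 expression as normalized by the authors. Library medians lay between 9.06 and 9.11, and read depth is unknown. All 10 B lineage markers were listed, with summed unlogged levels of 112900 to 115500 in WT and 84900 to 87540 in KO libraries. With ERT2, Rag1 was called higher in KO cells (mean 11.47 in WT, 11.80 in KO) and 7 markers were called lower. With Cre-ERT2, 1 was called higher and 8 lower, where 59.0% (ERT2) and 58.9% (Cre-ERT2) of all genes were called. Cd79a, the highest of the 10, averaged 35100 unlogged in ERT2 WT and 20260 in ERT2 KO libraries. Pax5 averaged 13.765 and 13.735 (log2) there. Of 10 myeloid markers 2 were listed (Lyz2 and Itgam, summed 189.4 to 196.2 in WT and 349.6 to 432.8 in KO), and they went opposite ways, with differences, KO minus WT, of 0.99 (ERT2) and 1.23 (Cre-ERT2) for Lyz2 and -0.15 and -0.18 for Itgam. Of 8 plasmacytoid dendritic cell markers 2 were listed (Bst2 and Tcf4, 2593 to 2853 and 4593 to 5034), and of 8 T lineage markers also 2 (Lck and Cd5, 551.2 to 999.7 and 280.8 to 449.9). The T lineage pair also disagreed, with differences of -1.45 and -1.93 for Lck and 0.13 and 0.64 for Cd5, all called. None of 7 erythroid or 6 stromal markers was listed. Each of these 4 sums separated the KO from the WT libraries, and their part in these differences was not tested. In bulk RNA, fewer cells of a type and less RNA per cell cannot be told apart.

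Spib encodes Spi-B, the ETS factor that is largely restricted to B cells and plasmacytoid dendritic cells. Its log2 expression was 11.06, 11.12 and 11.01 in the ERT2 WT libraries and 11.07, 11.07 and 11.05 in the Cre-ERT2 WT libraries. In KO cells it was 8.24, 8.20 and 8.34 with ERT2 and 8.21, 8.31 and 8.29 with Cre-ERT2. All 6 KO libraries lay below all 6 WT libraries, with no overlap. KO cells held 14.3% of the unlogged WT level with ERT2 and 14.4% with Cre-ERT2, a log2 difference of -2.80 (SE 0.04) in both. Over all genes, 59.0% were called for this difference in ERT2 libraries (29.8% upward and 29.3% downward) and 58.9% in Cre-ERT2 libraries (30.4% upward and 28.6% downward), by limma at a Benjamini-Hochberg adjusted p under 0.05. With each library centred on its median gene, the split moved from 3616 higher and 3559 lower to 2866 and 4747 in ERT2 libraries, and from 3688 and 3473 to 2983 and 4789 in Cre-ERT2 libraries.

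PU.1 is required for early lymphoid and myeloid development and acts on the same sites as Spi-B. Spi1 measured 9.97, 9.82 and 10.05 (ERT2) and 9.82, 9.75 and 9.75 (Cre-ERT2) in WT and 9.90, 9.82 and 9.87 (ERT2) and 9.69, 9.69 and 9.83 (Cre-ERT2) in KO libraries (log2). KO and WT values overlapped with either vector, with differences of -0.09 and -0.04 (SE 0.05). The pair of related factors thus had very unlike differences between KO and WT cells in these libraries.

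Irf8, the interferon regulatory factor that joins PU.1 on composite elements, was at 11.23, 11.21 and 11.25 in ERT2 WT and 11.44, 11.38 and 11.39 in Cre-ERT2 WT libraries. KO libraries had 12.14, 12.18 and 12.24 with ERT2 and 12.31, 12.35 and 12.35 with Cre-ERT2. Irf8 was the only member of the 7 with a higher mean in KO cells, at 1.94 and 1.91 times the unlogged WT level, and the groups did not overlap. The other 6 had lower means in KO cells with either vector. Over the 7 genes the median difference was -0.10 with ERT2 and -0.10 with Cre-ERT2, beside 0.0016 and 0.00155 over all genes.

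The other 4 ETS genes differed less between KO and WT cells than Spib. Ets1, a lymphoid ETS factor that restrains plasma cell differentiation, was at 12.32, 12.34 and 12.33 (ERT2) and 12.62, 12.57 and 12.60 (Cre-ERT2) in WT and 12.24, 12.17 and 12.25 (ERT2) and 12.11, 12.09 and 12.16 (Cre-ERT2) in KO libraries. Its KO level was 93.1% of WT with ERT2 and 71.9% with Cre-ERT2. Elf1, a lymphoid ETS activator, had 12.26, 12.20 and 12.28 (ERT2) and 12.34, 12.32 and 12.32 (Cre-ERT2) in WT and 11.98, 11.99 and 11.99 (ERT2) and 12.06, 12.04 and 12.10 (Cre-ERT2) in KO libraries. Its KO libraries lay below the WT libraries throughout, by 0.26 on the log2 scale with either vector. Fli1, a factor of blood stem cells, megakaryocytes and B cells, ran from 11.55 to 11.65 (ERT2) and 11.71 to 11.77 (Cre-ERT2) in WT and 11.53 to 11.55 (ERT2) and 11.66 to 11.73 (Cre-ERT2) in KO libraries. Gabpa, the DNA-binding subunit of GABP, ran from 11.50 to 11.68 and 11.52 to 11.58 in WT and from 11.43 to 11.50 and 11.40 to 11.48 in KO libraries, in the same order. KO and WT ranges overlapped for Fli1 with either vector and for Gabpa with ERT2 but not with Cre-ERT2.

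**Figure D1:**
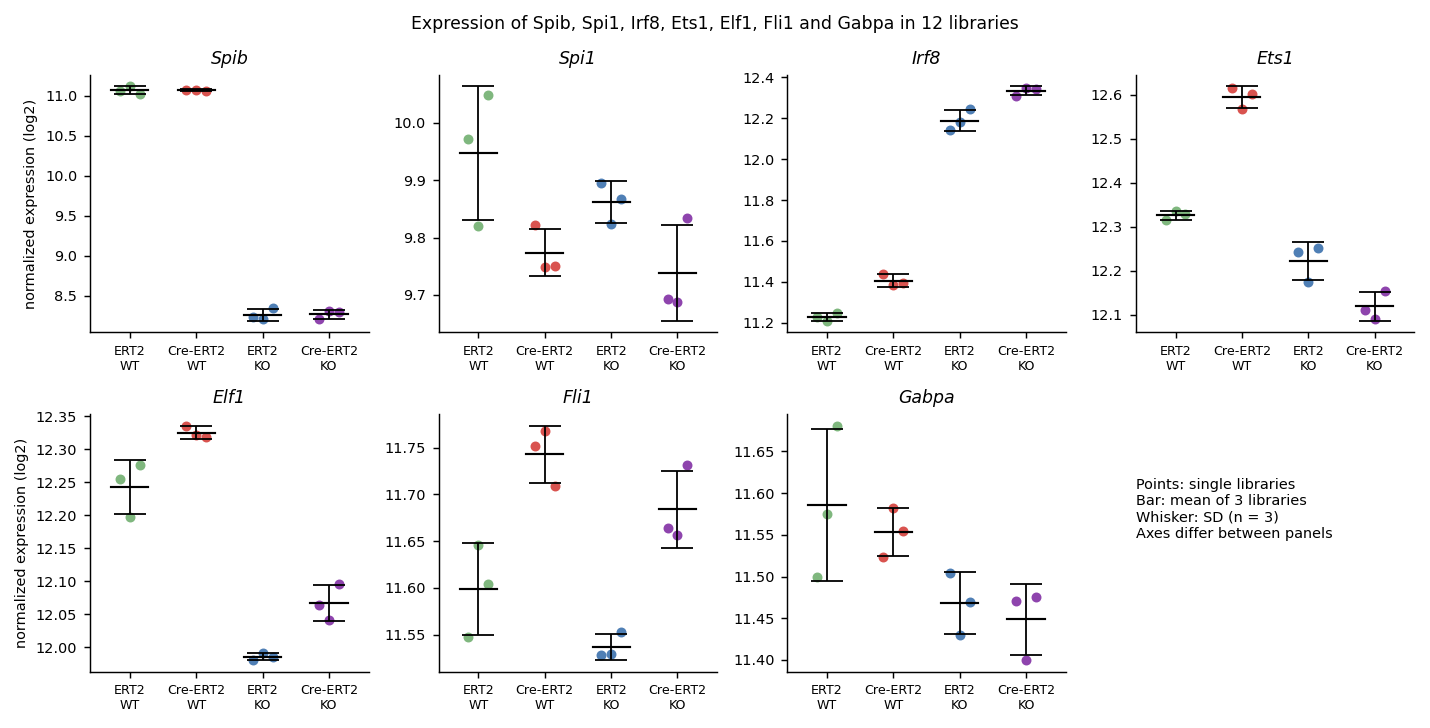
Normalized expression (log2) of the 7 genes on the vertical axis in the 4 groups on the horizontal axis, with 1 point per library, the mean as a bar and the SD as a whisker (n = 3), each panel on its own axis. Spib lies between 11.01 and 11.12 in WT and between 8.20 and 8.34 in KO libraries, Irf8 is higher in KO libraries, and Ets1 is higher with Cre-ERT2 in WT but lower with Cre-ERT2 in KO cells.

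Cre-ERT2 minus ERT2 was tested within each background, with limma across all genes. This difference is called the β-catenin effect here, although Cre activity and loss of exon 3 cannot be told apart in it. In WT cells 4 of the 7 genes were called, all higher, against 11.9% of all genes (5.93% higher and 5.95% lower). In KO cells 4 were also called, 3 higher and 1 lower, against 12.6% (7.27% higher and 5.33% lower). The called genes, Irf8, Ets1, Elf1 and Fli1, had mean levels above those of 87.2% to 92.7% of all genes. Median replicate SD was 0.0407, 0.0459, 0.0395 and 0.0331 for means of 6 to 8, 8 to 10, 10 to 12 and 12 to 14. The shares over all genes were not matched for level. The median difference over the 7 genes was 0.08 in WT and 0.01 in KO cells, and over all genes 2.18e-05 and -0.000412. All these differences were small beside those of Spib and Irf8 between KO and WT cells. The exact permutation test of 3 against 3 libraries cannot go below p = 0.1, so calls rest on limma's spread estimated from all 12 libraries.

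Spib levels overlapped with and without β-catenin stabilization, and no effect was called. The difference was 0.00 in WT (95% interval -0.09 to 0.09, limma adjusted p = 0.997) and 0.01 in KO cells (-0.08 to 0.10, limma adjusted p = 0.941). Spi1 averaged 0.17 lower with Cre-ERT2 in WT cells (difference -0.17, SE 0.05, limma adjusted p = 0.0618) and 0.12 lower in KO cells (difference -0.12, limma adjusted p = 0.181), and neither was called. ERT2 WT replicate 2, at 9.82, stood below the other ERT2 WT libraries, and without it the WT difference was -0.24 (limma adjusted p = 0.00906). Leaving out Cre-ERT2 KO replicate 3 gave a call as well (limma adjusted p = 0.0386), as did quantile normalization (0.0492) and a test of genes with a mean of at least 8 alone (0.0455). With the replicate number as a block the WT difference was called too (limma adjusted p = 0.0344).

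Irf8 rose with β-catenin in both backgrounds, by 0.18 in WT and by 0.15 in KO cells (SE 0.03 each, limma adjusted p = 0.0012 and 0.00414). Fli1 rose by 0.14 and 0.15 (SE 0.03 each, limma adjusted p = 0.00666 and 0.00564). For both genes the Cre-ERT2 libraries lay above the ERT2 libraries in each background. Elf1 rose by 0.08 in each background (SE 0.02, limma adjusted p = 0.0394 and 0.0391), close to the threshold. The WT call of Elf1 was lost without ERT2 WT replicates 1 or 2, any Cre-ERT2 WT replicate or any ERT2 KO replicate (limma adjusted p up to 0.15), and with each library centred on its median gene (0.0685). The KO call was lost without any library other than ERT2 WT replicates 2 and 3 and Cre-ERT2 KO replicate 2 (limma adjusted p up to 0.111), with centring (0.0723) and with quantile normalization (0.126). Gabpa did not pass the test in either background (differences -0.03 and -0.02, limma adjusted p = 0.701 and 0.832).

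**Figure D2:**
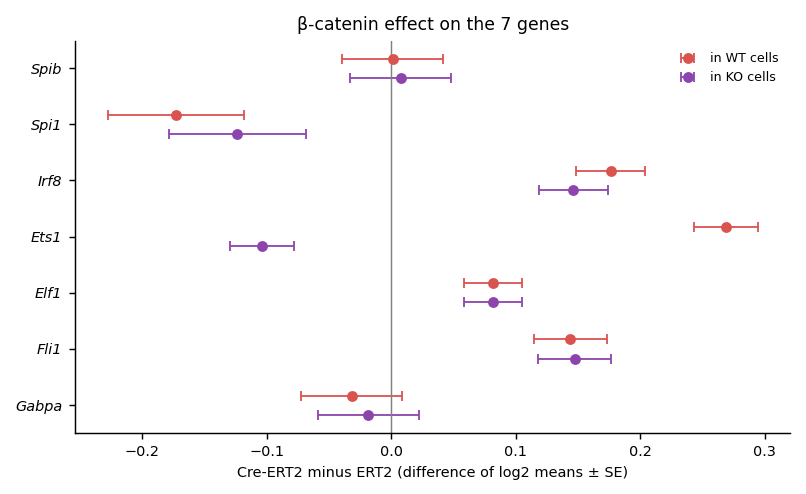
Difference of log2 means, Cre-ERT2 minus ERT2, on the horizontal axis for each of the 7 genes on the vertical axis in WT and KO cells; points are estimates from 3 against 3 libraries and bars are SE. Irf8, Fli1 and Elf1 are shifted to the right in both backgrounds, Spib lies at 0.00 and 0.01, and Ets1 lies at 0.27 in WT and -0.10 in KO cells.

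Among the 7 genes, only Ets1 had a call for a β-catenin effect that differed between backgrounds. It rose by 0.27 (SE 0.03, limma adjusted p = 2.39e-05) in WT cells. It fell by 0.10 in the KO background (SE 0.03, limma adjusted p = 0.0197). The difference of the effects, KO minus WT, was -0.37 (SE 0.04, limma adjusted p = 6.74e-05), and it stayed between -0.40 and -0.36 and called whichever library was left out. The fall in KO cells was less firm. It was not called without ERT2 KO replicates 1 or 3 or Cre-ERT2 KO replicates 1 or 2 (limma adjusted p up to 0.0822), nor in a fit to the 6 KO libraries alone (0.0928). Over all genes 4.53% were called for this difference of effects, 2.71% higher and 1.82% lower. For the other 6 genes the differences of the effects ran from -0.03 for Irf8 to 0.05 for Spi1 and were not called, with intervals of -0.12 to 0.13 for Spib.

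Other members of the ETS family were read from a list of 20 genes, of which 13 were in the table. This list and the later ones were written with earlier results of these data known, so their KO against WT calls are a description. Between KO and WT cells 6 rose and 4 fell with ERT2, and 5 rose and 4 fell with Cre-ERT2, with medians of 0.06 in both. These are 10 and 9 of 13 genes called, where 59.0% and 58.9% of all genes were called. Erf, a transcriptional repressor held in check by ERK, had the largest rise of the list. It was at 7.43, 7.42 and 7.51 (ERT2) and 7.17, 7.17 and 7.20 (Cre-ERT2) in WT and 9.10, 9.18 and 9.13 (ERT2) and 9.02, 9.12 and 9.02 (Cre-ERT2) in KO libraries. Its difference was 1.68 and 1.87 (SE 0.04, limma adjusted p = 9.57e-13 and 3.11e-13). Etv5, a PEA3-group factor downstream of ERK, rose by 1.25 and 1.44 (SE 0.03, limma adjusted p = 6.83e-13 and 1.74e-13). Etv1 of the same group rose by 0.78 and 0.91, and Etv6, a repressor that is fused to RUNX1 in childhood B-ALL, by 0.48 and 0.54. The genes that fell were Ets2, Erg, Etv3 and Elf4, with differences between -0.48 and -0.29.

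With β-catenin 11.9% of all genes were called in WT and 12.6% in KO cells. In WT cells Etv5, Elk3 and Elk4 rose and Erg and Erf fell, 5 of 13. In KO cells Etv5 rose and Ets2, Erg and Elf4 fell, 4 of 13. Etv5 was at 11.40, 11.45 and 11.49 (ERT2) and 12.20, 12.19 and 12.18 (Cre-ERT2) in WT and 12.66, 12.67 and 12.74 (ERT2) and 13.64, 13.61 and 13.63 (Cre-ERT2) in KO libraries, so none of the 4 groups overlapped. Its β-catenin effect was 0.74 in WT and 0.94 in the KO background (SE 0.03, limma adjusted p = 2.26e-09 and 1.46e-10), and the difference of the effects was 0.19 (SE 0.04, limma adjusted p = 0.0106), the only call for this difference among the 13 genes in this fit, against 2 with quantile normalization. Erf fell by 0.27 in WT cells (limma adjusted p = 0.000375). The call of Elk3 in WT was lost without ERT2 WT replicates 2 or 3 or Cre-ERT2 WT replicate 1 (limma adjusted p up to 0.0836), and that of Elf4 in KO without ERT2 KO replicates 1 or 3 or Cre-ERT2 KO replicates 1 or 2 (up to 0.089).

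Of 8 other IRF genes 7 were in the table. With either vector all 7 were called for KO against WT, 2 rising and 5 falling, beside 59.0% and 58.9% of all genes. Their median difference was -0.21 with ERT2 and -0.19 with Cre-ERT2. As for the ETS list, these calls and their p-values are a description. Irf4, the partner of PU.1 and Spi-B that shares composite elements with Irf8, was at 12.29, 12.31 and 12.22 (ERT2) and 12.51, 12.57 and 12.53 (Cre-ERT2) in WT and 11.53, 11.49 and 11.48 (ERT2) and 12.01, 12.02 and 12.03 (Cre-ERT2) in KO libraries. It fell by 0.77 and 0.52 between WT and KO cells (SE 0.03, limma adjusted p = 7.94e-11 and 3.73e-09), whereas the mean of Irf8 was higher in KO cells. Irf1, an activator of interferon-responsive genes, differed by -0.43 and -0.54, and Irf9, the DNA-binding subunit of the interferon-induced ISGF3 complex, by -0.51 and -0.50. The higher genes were Irf2 and Irf5. Irf7, among the 5 that fell, had a low level, with means of 4.32 in WT and 4.24 in KO (ERT2) and 4.34 and 4.26 (Cre-ERT2).

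Irf4 was higher with Cre-ERT2 in both backgrounds, by 0.26 in WT and 0.51 in the KO background (SE 0.03, limma adjusted p = 4.01e-05 and 5.71e-08). The KO effect exceeded the WT effect by 0.25 (SE 0.04, limma adjusted p = 0.00214). Irf1 rose in WT cells by 0.22 (limma adjusted p = 0.00118), making 2 of 7 called in WT beside 11.9% of all genes. In KO cells 3 were called, beside 12.6%. Irf9 rose by 0.10 (limma adjusted p = 0.0489), a call that was lost without any library other than ERT2 KO replicate 2 and Cre-ERT2 KO replicate 3, and Irf5 fell by 0.11 (limma adjusted p = 0.0205), a call lost without ERT2 KO replicates 1 or 2 or Cre-ERT2 KO replicates 1 or 2.

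**Figure D3:**
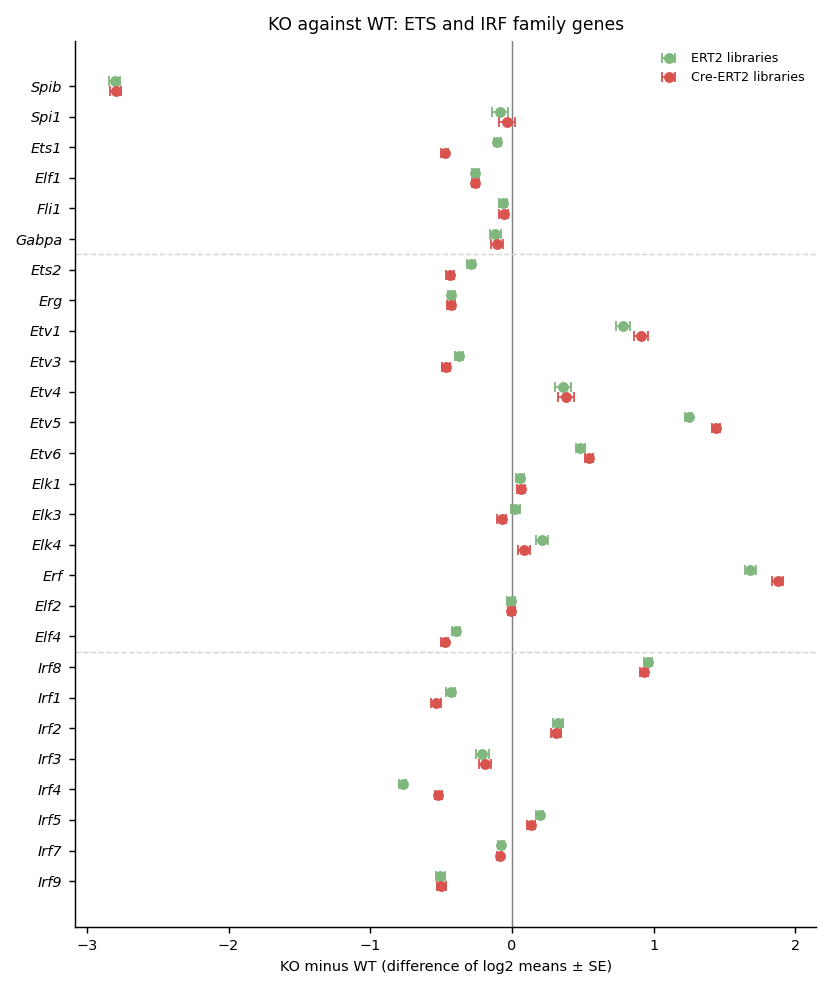
Difference of log2 means, KO minus WT, on the horizontal axis for the 7 genes, 13 other ETS genes and 7 other IRF genes on the vertical axis, in ERT2 and in Cre-ERT2 libraries; points are estimates and bars are SE, with dashed lines between the ETS members, the other ETS genes and the IRF genes. Spib stands at -2.80, farther from 0 than the other genes drawn, Erf and Etv5 lie at the right, and Irf4 and Irf8 lie on opposite sides of 0.

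Cofactors and upstream regulators of these factors formed a list of 22 genes, 18 of them in the table. The KO against WT calls of this list, too, are a description. Between KO and WT cells 2 rose and 8 fell with ERT2 and 3 rose and 11 fell with Cre-ERT2, with medians of -0.04 and -0.11. The 10 of 18 called with ERT2 are close to the 59.0% of all genes, and 14 of 18 were called with Cre-ERT2 beside 58.9%. Jun, the AP-1 subunit that can bind beside PU.1, fell by 0.64 and 0.50 (SE 0.05, limma adjusted p = 1.02e-07 and 1.16e-06). Gfi1b, a zinc finger repressor of blood cell genes, rose by 0.41 in Cre-ERT2 libraries (limma adjusted p = 2.62e-05). Cebpb, at a low level, averaged 5.80 in ERT2 WT and 5.21 in ERT2 KO libraries.

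With Cre-ERT2, 5 of the 18 genes rose and 4 fell in WT cells. In KO cells 5 rose and 3 fell, beside 11.9% (WT) and 12.6% (KO) of all genes called. Gfi1b rose by 0.45 in WT and 0.76 in the KO background (SE 0.05, limma adjusted p = 0.000152 and 1.1e-06). Cebpb, a bZIP factor of myeloid cells, fell by 0.61 in WT cells (SE 0.04, limma adjusted p = 4.71e-07) from a low level of 5.73 to 5.92 to 5.18 to 5.20, and its KO libraries lay between 5.20 and 5.24. With a pseudocount of 32 the WT effect was -0.36 and the difference of the effects 0.36, both still called. Whether a floor limited the effect on Cebpb in KO cells was not tested. The effects of β-catenin differed between backgrounds for Cebpb (difference 0.62, limma adjusted p = 2.4e-05), Ebf1 (-0.19, limma adjusted p = 0.0175) and Gfi1b (0.31, limma adjusted p = 0.0391). The Gfi1b difference stayed called without Cre-ERT2 WT replicate 2 or Cre-ERT2 KO replicate 2 and was lost without any of the other 10 libraries (limma adjusted p up to 0.0965).

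**Figure D4:**
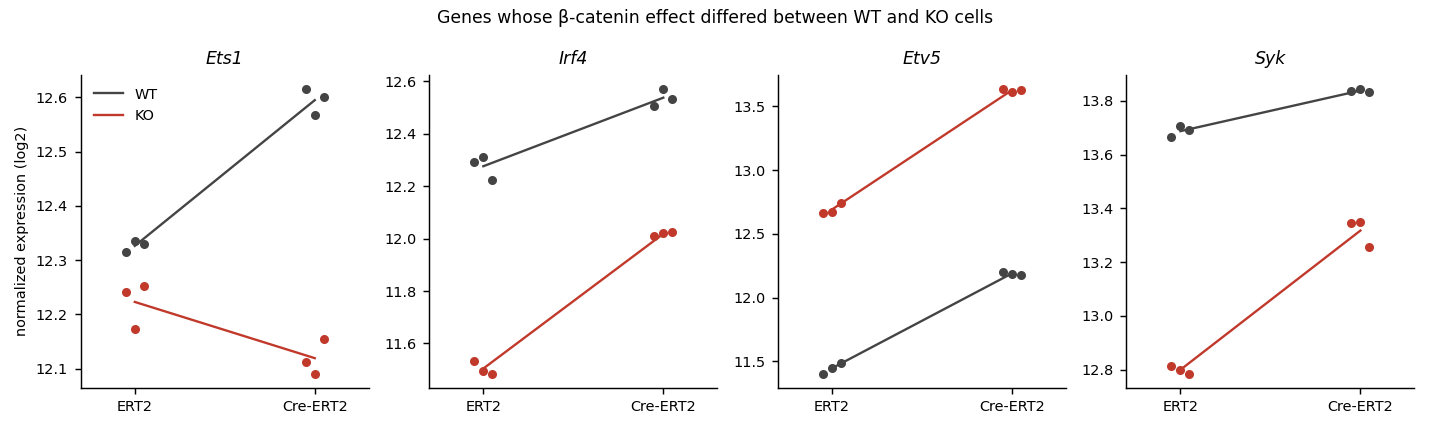
Normalized expression (log2) on the vertical axis of Ets1, Irf4, Etv5 and Syk with ERT2 and Cre-ERT2 on the horizontal axis; points are libraries, lines join group means, and WT and KO cells are drawn apart. The Ets1 lines run in opposite directions, and the lines of Irf4, Etv5 and Syk rise more in KO cells, by 0.25, 0.19 and 0.37.

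A list of 16 genes bound or regulated by PU.1 or Spi-B in B cells was drawn from general knowledge. Of these, 14 were in the table. Whether their differences were linked to that of Spib was not tested. This list, too, was written with earlier results of these data known, so its KO against WT results are a description. All 14 passed the test of KO against WT with ERT2, 2 rising and 12 falling, and 13 passed with Cre-ERT2, 2 rising and 11 falling. Of all genes 59.0% and 58.9% passed, 29.3% and 28.6% downward. The median differences were -0.44 and -0.41. Blk, a Src-family kinase of B cells, was at 10.96, 10.94 and 11.05 (ERT2) and 10.73, 10.63 and 10.70 (Cre-ERT2) in WT and 7.13, 7.15 and 7.24 (ERT2) and 7.06, 7.10 and 7.10 (Cre-ERT2) in KO libraries, with a difference of -3.81 and -3.60 (SE 0.04, limma adjusted p = 1.13e-15 and 1.78e-15). Fcgr2b, the inhibitory Fc receptor, differed by -1.49 and -1.46 and P2ry10, a lysophospholipid receptor gene, by -1.05 and -1.05. Il7r, the interleukin-7 receptor chain, differed by -0.82 and -0.93. The pre-B cell receptor genes Syk, Cd79a and Blnk, a kinase, a signaling chain and an adaptor, differed by -0.89, -0.79 and -0.65 with ERT2 and by -0.52, -0.76 and -0.72 with Cre-ERT2. Cd22, an inhibitory coreceptor, and Nfkb1, an NF-κB subunit, were higher in KO cells. Cd79a, Cd79b, Blnk and Igll1 of this list also stood among the B lineage markers, whose summed level was lower in KO libraries.

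With β-catenin 2 of the 14 rose and 3 fell in WT cells, and 4 rose and 3 fell in KO cells, beside 11.9% and 12.6% of all genes called. Syk was at 13.66, 13.71 and 13.69 (ERT2) and 13.84, 13.85 and 13.83 (Cre-ERT2) in WT and 12.81, 12.80 and 12.79 (ERT2) and 13.35, 13.35 and 13.26 (Cre-ERT2) in KO libraries. It rose by 0.15 in WT and 0.52 in the KO background (SE 0.03, limma adjusted p = 0.00161 and 3e-08), a difference of the effects of 0.37 (SE 0.04, limma adjusted p = 6.07e-05) and the only such call in the list in this fit. Grap2, a Grb2-family adaptor, rose in both backgrounds, by 0.39 and 0.27, and Cd79b fell in both, by 0.12 and 0.18. The WT call of Cd79b was lost without ERT2 WT replicate 1 (limma adjusted p = 0.0583) or Cre-ERT2 WT replicate 2 (0.0731). Blk and Igll1 fell in WT cells, by 0.30 and 0.16. In KO cells Cd79a and P2ry10 rose, by 0.09 and 0.16, and Blnk and Il7r fell, by 0.08 and 0.10, with limma adjusted p of 0.0181 to 0.0496. The P2ry10 call was lost without any library other than Cre-ERT2 KO replicate 1. That of Il7r stayed in 5 of 12 fits that left out a library, and those of Cd79a and Blnk in 8 of 12 each. The 7 calls in KO cells became 4 without ERT2 KO replicates 1 or 2 or Cre-ERT2 KO replicate 3, and 3 without Cre-ERT2 KO replicate 2. The single call for the difference of the effects became 2 without ERT2 KO replicates 1 or 3, with quantile normalization and with a pseudocount of 32. It also became 2 with the replicate number as a block.

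**Figure D5:**
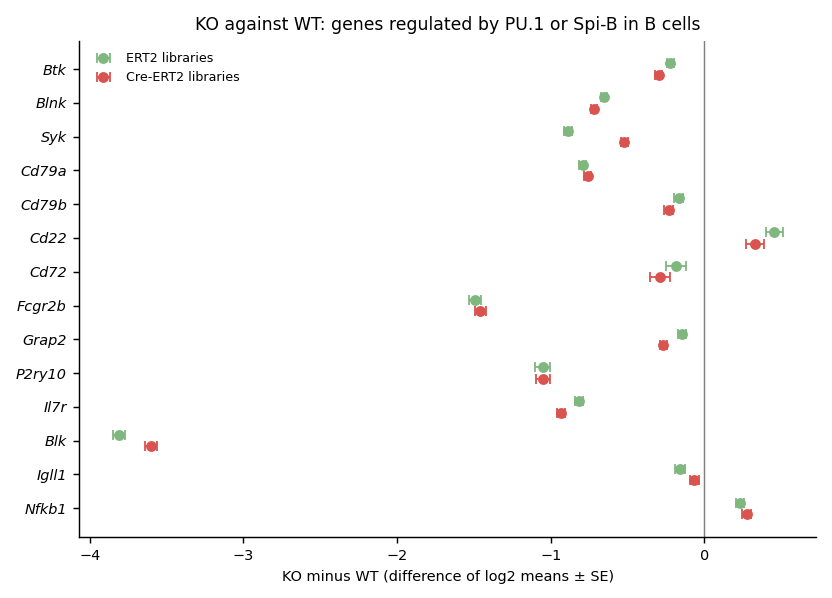
Difference of log2 means, KO minus WT, on the horizontal axis for 14 genes listed as bound or regulated by PU.1 or Spi-B on the vertical axis. ERT2 and Cre-ERT2 libraries are drawn apart, points are estimates and bars are SE. Blk lies at -3.81 and -3.60 and Fcgr2b at -1.49 and -1.46, while Cd22 and Nfkb1 lie to the right of 0.

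The genes whose profiles over the 12 libraries were closest to each member, by Euclidean distance after centring each gene on its own mean, were sought among 6075 genes. For Spib these were Slfn2 (distance 0.475, Pearson r = 0.995), Il2ra (1.2, r = 0.993) and Tubb2b (1.51, r = 0.994). These distances were wider than those of the other 6 members. Profiles were centred but not scaled, so distances are not comparable between genes with large and small differences. With Cre-ERT2 in WT cells the mean of Slfn2 differed by -0.29 and those of Il2ra and Tubb2b by 0.39 and 0.30, where Spib differed by 0.00. Irf8 was closest to H1f0, Pdk1 and Scd1 (distances 0.226 to 0.245, r of 0.989 to 0.997), and Ets1 to Wnk1, Sept6 and Maml2 (0.226 to 0.233, r of 0.927 to 0.933). Spi1 was closest to Ifrd1, Gpd2 and Bcat1 (distances 0.17 to 0.221, r of 0.807 to 0.884). Elf1 was closest to Myl6, Cenpl and Tmem167b, Fli1 to Dtx3l, Csnk1d and Ppp2r3c, and Gabpa to Top2b, Dctn5 and Nupl1. All profiles share the same 12 libraries and the same 4 groups, so these values are a description.

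The 7 genes lie on separate chromosomes except for Ets1 and Fli1. Fli1 (chromosome 9, 32422204 to 32542861, minus strand, GRCm38) and Ets1 (chromosome 9, 32636221 to 32757820, plus strand) do not overlap, and in WT cells both rose with β-catenin, whereas in KO cells Fli1 rose and Ets1 fell. Spib lies at 44525993 to 44532071 on chromosome 7 and Irf8 at 120736358 to 120756694 on chromosome 8.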

How the data were processed

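RNA was measured in 12 libraries of 4 groups (n = 3). Per the study's methods, the authors made stranded mRNA libraries, processed the reads with STAR 2.7.6 and Salmon 1.4.0 on mm10/GRCm38 and analysed them with DESeq2 1.30.1. The deposited table holds log2 expression values that the authors normalized, for 12151 genes; the transformation was not given in the sources used here, so low values may understate fold changes, and no read counts or depths were used here. Columns were matched to samples by title. limma 3.58.1 (R 4.3.3) was fitted to 4 group means with a mean-dependent prior and Benjamini-Hochberg adjustment over all genes, called under 0.05, and checked on simulated data. The 7 genes and all lists were chosen with earlier results of these data known. Genes of the lists were named where a difference reached 0.5 in any contrast; others named beside small counts were named after their values were seen. Lists were described by counts and medians, without a set test. Alternatives were a replicate block, median centring, quantile normalization, a pseudocount of 32, genes with a mean of at least 8, no trend, a threshold of 0.01, fits to 6 libraries alone and leaving out each library. Promoters came from RefSeq (GRCm38.p6) and gene positions from a GRCm38 annotation.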

Additional observations from a re-analysis of the deposited data

Results flagged for a closer look

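The effect of β-catenin differed between KO and WT cells for 7 genes described here, by limma's test of the difference of the effects at an adjusted p under 0.05. The values, KO minus WT on the log2 scale, were -0.372 for Ets1, 0.193 for Etv5, 0.253 for Irf4, 0.312 for Gfi1b, 0.617 for Cebpb, -0.187 for Ebf1 and 0.367 for Syk. The Cebpb value became 0.361 with a pseudocount of 32 and was still called. Cebpb was at 5.20 to 5.24 in KO libraries, near its Cre-ERT2 WT level of 5.18 to 5.20. Whether a floor limited its effect in KO cells was not tested. Ets1 is the only one of the 7 genes chosen by symbol.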

How the results depend on the processing

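The large differences between KO and WT cells kept their direction under every alternative tried for Spib and Irf8. Spib moved from -2.80 to -2.68 with a pseudocount of 32 with either vector. The lower KO means of Spi1, Ets1, Elf1, Fli1 and Gabpa kept their direction too, but their size depended on the normalization. In ERT2 libraries Ets1 differed by -0.0478 with quantile normalization and by -0.135 with median centring. Fli1 there ran from -0.0948 to -0.0127 over the alternatives other than leaving out a library. The rises of Irf8 and Fli1, the rise of Ets1 in WT cells and its difference of the effects stayed called with every library left out. At an adjusted p under 0.01, the genes called by limma for β-catenin were 787 (WT) and 790 (KO), with 240 for the difference of the effects, and the Elf1 effects (0.0817 and 0.0815) and the Ets1 effect in KO (-0.104) were not called. Fitted to 6 libraries alone, 934 genes were called in KO cells, and the same 3 effects (0.0817, 0.0815 and -0.104) were not called. Among genes with a mean of at least 8, 337 were called for the difference of the effects and Spi1 in WT was called (-0.173), as it was with quantile normalization (-0.184). The Elf1 calls were lost with median centring (0.0759 in WT, 0.0742 in KO) and in KO with quantile normalization (0.0618). Spib effects near 0 changed sign with median centring (-0.00466 in WT, -3.89e-05 in KO) and quantile normalization (-0.00248 and -0.0019), as did the Fli1 difference of the effects with quantile normalization (-0.00984).

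With one library left out at a time, β-catenin effects ran from -0.0239 to 0.0271 (WT) and -0.0223 to 0.049 (KO) for Spib, -0.237 to -0.122 (WT) for Spi1, -0.128 to -0.0889 (KO) for Ets1, 0.0591 to 0.0985 (WT) and 0.0673 to 0.0941 (KO) for Elf1, and -0.0745 to 0.0159 (WT) and -0.0375 to 0.00574 (KO) for Gabpa. Differences of the effects ran from -0.0235 to 0.0478 for Spib, -0.00168 to 0.113 for Spi1, -0.0169 to 0.0225 for Elf1, -0.0201 to 0.0293 for Fli1 and -0.0347 to 0.0558 for Gabpa. None of these that changed sign was called. The cause was not tested.

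The labels do not say whether equal replicate numbers pair the samples. Deviations of 18 same-numbered pairs correlated between -0.0908 and 0.313, with 2 above 0.1, and 5 of 12 libraries correlated best with their own number. Medians were -0.0055 for same-numbered and -0.0104 for other pairs. Between ERT2 KO and Cre-ERT2 KO libraries, same-numbered pairs correlated at 0.0767 to 0.132 and other pairs at -0.0871 to -0.0191. With the replicate number as a block, 1361 genes were called in WT, 1374 in KO and 424 for the difference of the effects, against 1443, 1531 and 550. Spi1 in WT was then called (-0.173, limma adjusted p = 0.0344), the Gfi1b difference of the effects was not (limma adjusted p = 0.0753), nor was Il7r in KO cells (0.0667), and 2 of the PU.1 or Spi-B target genes were called for the difference of the effects, against 1.

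Depth is unknown, so no counting error can be given. With 3 libraries a group the β-catenin effects near 0.1 lie close to the threshold.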
